A study of Macaca mulatta with 8 samples.

Results

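In macaque blood, CD25high CD127low CD4 T cells, the surface phenotype of regulatory T cells (Tregs), were compared with CD4 T cells positive for both CD127 and CD25. All cells of the libraries sorted under those labels on day 3 and on day 20 were taken, which gave 13392 of the 25397 cells of the series and 4 of its 8 libraries. The series profiled single CD4 T cells of rhesus macaques in droplets and concerns adoptively transferred Tregs. On each day 1 library came from CD3-positive CD4-positive CD25high CD127low cells, 1 from CD3-positive CD4-positive CD127-positive CD25-positive cells and 1 from CD127-positive CD25-negative cells, which are given here as background beside the comparison. The labels give frozen blood mononuclear cells thawed on a single day as the source of every library, and name neither the animal, its age nor any treatment, so the populations and days may come from the same or different animals. Each population had a single library a day, so there were no replicates, no p-value was computed, and every interval below is at the 95% level and reflects counting error alone.

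CD25 is the alpha chain of the interleukin-2 (IL-2) receptor and CD127 the alpha chain of the interleukin-7 receptor. Tregs depend on IL-2 and on the transcription factor FOXP3, which holds CD127 low, and so low CD127 with high CD25 is used to sort them without staining for FOXP3. Conventional CD4 cells also gain CD25 after activation, and in blood many CD25-positive CD127-positive cells are memory cells. The comparison therefore sets a Treg gate against its nearest neighbour in the same stain.

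On day 3 the CD25high CD127low library had 3347 cells with a total of 10789317 UMIs (unique molecular identifiers, each counting 1 captured RNA molecule), and the CD127-positive CD25-positive library 2951 cells with 8945900 UMIs. On day 20 they had 2343 cells with 6579896 UMIs and 4751 cells with 10488609 UMIs. A cell of the Treg gate had a median of 3095 UMIs on day 3 and 2674 on day 20, against 2942 and 2131 UMIs in the CD127-positive CD25-positive gate. Cell barcodes shared by both libraries of a day numbered 11 on day 3 and 17 on day 20. CD3D, a T cell receptor subunit, lay between 1174 and 1522 CPM (UMIs of the gene per 1000000 UMIs of the library) in the 4 libraries, while CD4 RNA was captured at 3.47 to 4.96 CPM and CD8A at 0 to 0.447 CPM. Of the markers of other cells, 8 B cell genes summed to 137 and 115 CPM in the CD25high CD127low libraries on day 3 and day 20, against 42.1 and 49.96 CPM in the CD127-positive CD25-positive ones. Of the red cell genes, 5 of 7 were in the table and summed to 1567 and 146 CPM in CD25high CD127low cells, against 311 and 133 CPM. The 8 monocyte genes in the table summed to 27.8 and 35.3 CPM, against 28.7 and 13.3 CPM, and the 7 natural killer cell genes to 81.6 and 90.9 CPM, against 51.2 and 74.1 CPM. The part of these markers in the results below was not tested, except where values without the cells that carry them are given.

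Most genes differed little between the sorts. Summed UMIs were scaled to CPM, and a gene was called where the CPM, each with 10 CPM added, differed at least 2-fold and at least 50 CPM were reached in 1 of both libraries. On day 3, 13 of 1749 genes tested (0.743%) were called higher in CD25high CD127low cells and 10 (0.572%) lower, and on day 20, 51 of 1889 genes (2.7%) were called higher and 1 (0.0529%) lower. Within 1.5-fold lay 96.1% of genes on day 3 and 85.2% on day 20. Ribosomal protein genes and genes without a name made up 9 of the 10 genes called lower on day 3 and 43 of the 51 called higher on day 20. The median log2 ratio of genes without a name was -0.22 over 215 genes on day 3 and 0.86 over 254 genes on day 20, whereas that of other named genes was 0.12 and -0.06. Genes without a name held 11.3% and 14.2% of UMIs in CD25high CD127low cells on day 3 and day 20, and 12.5% and 10.6% in CD127-positive CD25-positive cells, so that the CD127-positive CD25-positive library of day 20 was the lowest of the 4. Counted over named genes without ribosomal protein and mitochondrial genes, 13 of 1447 (0.898%) were called higher and 1 (0.0691%) lower on day 3, and 8 of 1546 (0.517%) higher and 1 (0.0647%) lower on day 20.

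Called on both days in the same direction were 6 genes higher in CD25high CD127low cells (0.349% of the 1718 tested on both days) and 1 lower (0.0582%), and all 7 have names. The 6 were FOXP3, IL2RA, TNFRSF1B, CD9, PTTG1 and PRSS57, and the gene called lower was IL7R. The comparison of day 3 with day 20 over all genes shows them apart from the rest.

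**Figure D1:**
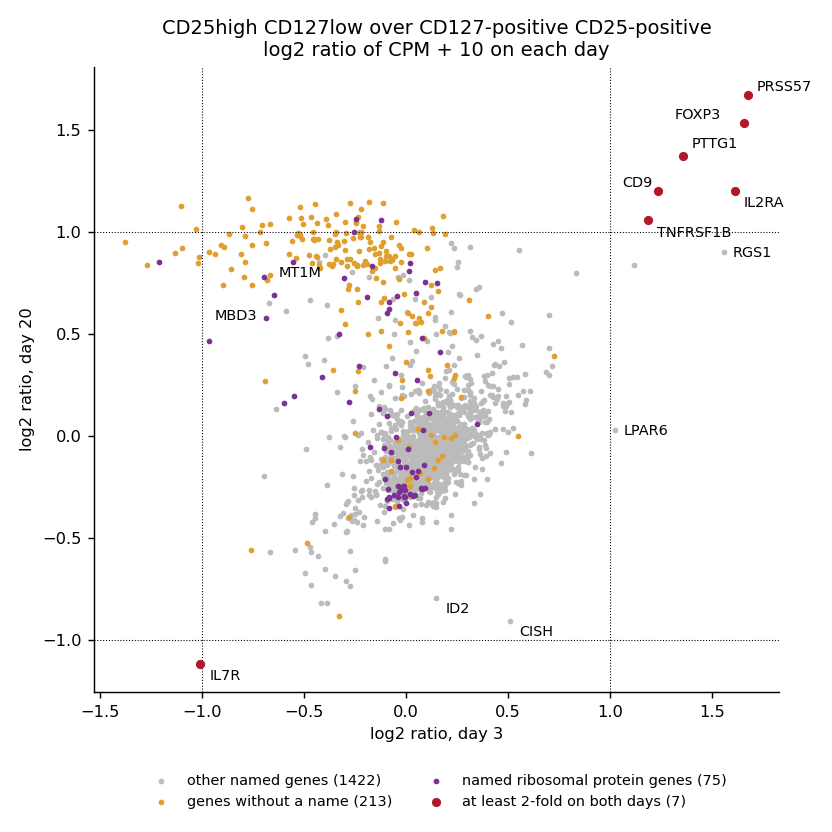
Each point is a gene that reached 50 CPM in either library of each day, placed by its log2 ratio of CPM + 10, CD25high CD127low over CD127-positive CD25-positive cells, on day 3 (horizontal) and day 20 (vertical). Dotted lines mark 2-fold. The 7 genes called on both days stand in the upper right and lower left corners, and most genes without a name lie above 0 on day 20 and below 0 on day 3.

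The genes of both sort markers followed their gates, which checks the labels. IL2RA (ENSMMUG00000015151), which encodes CD25, had 317 CPM (interval 307 to 328) on day 3 and 212 CPM (201 to 223) on day 20 in CD25high CD127low cells, against 97.0 CPM (90.7 to 104) and 86.5 CPM (80.9 to 92.3) in CD127-positive CD25-positive cells. The CD127-positive CD25-negative libraries had 5.44 and 5.16 CPM. IL2RA was thus 3.27-fold (3.03 to 3.53) and 2.45-fold (2.25 to 2.67) higher in the Treg gate, and the CD127-positive CD25-positive cells themselves stood well above the CD25-negative cells. IL7R (ENSMMUG00000001676), which encodes CD127, had 404 CPM (392 to 416) and 460 CPM (444 to 477) in CD25high CD127low cells, against 823 CPM (804 to 842) and 1008 CPM (989 to 1027) in CD127-positive CD25-positive cells. The ratios were 0.490 (0.472 to 0.509) on day 3 and 0.456 (0.438 to 0.475) on day 20. Its RNA was not absent from the CD127low gate, and the CD127-positive CD25-negative libraries, at 781 and 890 CPM, lay below the CD127-positive CD25-positive ones. The day 3 ratio lies just past 2-fold (log2 -1.01) and was log2 -0.97, no longer called, without 701 doublet-like cells, which had 3 or more UMIs from a marker list of another blood lineage or more than 2 times the median UMIs of their library.

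FOXP3 (ENSMMUG00000008624), the lineage transcription factor of Tregs, had 76.0 CPM (70.9 to 81.4) and 67.8 CPM (61.6 to 74.4) in CD25high CD127low cells, against 17.3 CPM (14.7 to 20.3) and 16.9 CPM (14.5 to 19.6) in CD127-positive CD25-positive cells. It was 4.39-fold (3.69 to 5.24) and 4.02-fold (3.37 to 4.81) higher. In CD127-positive CD25-negative cells FOXP3 was near 0, with 4 UMIs (0.530 CPM, 0.144 to 1.36) and 2 UMIs (0.246 CPM, 0.0298 to 0.888). CD127-positive CD25-positive cells were therefore not free of FOXP3 RNA, but held a level between those of the other gates on both days. Since the counts are summed over cells, fewer FOXP3-expressing cells and less FOXP3 RNA per cell cannot be told apart from these levels alone.

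TNFRSF1B (ENSMMUG00000021447), the receptor TNFR2 through which tumour necrosis factor acts on Tregs, had 116 CPM (109.9 to 123) and 88.3 CPM (81.3 to 95.8) in CD25high CD127low cells, against 45.5 CPM (41.2 to 50.1) and 37.3 CPM (33.7 to 41.2) in CD127-positive CD25-positive cells. The CD127-positive CD25-positive levels were close to the 33.5 and 35.1 CPM of CD127-positive CD25-negative cells. The call rests on ratios just past the threshold on day 20, where TNFRSF1B had log2 1.06, log2 0.99 with edgeR's TMM scaling and log2 0.998 without the doublet-like cells. CTLA4, the inhibitory receptor that competes for CD80 and CD86, had 49.4 CPM (45.3 to 53.8) and 47.7 CPM (42.6 to 53.3) in CD25high CD127low cells, against 17.0 CPM (14.4 to 19.9) and 16.5 CPM (14.1 to 19.1) in CD127-positive CD25-positive cells. CTLA4 was 2.91-fold (2.42 to 3.51) and 2.89-fold (2.40 to 3.50) higher but stayed under 50 CPM in every library compared and so was not called.

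The other 3 genes called higher are not part of the classical Treg programme. PRSS57 (ENSMMUG00000021555) encodes a serine protease known from neutrophil granules. PRSS57 had 68.3 CPM (63.5 to 73.4) and 85.3 CPM (78.3 to 92.6) in CD25high CD127low cells, against 14.5 CPM (12.1 to 17.3) and 19.9 CPM (17.3 to 22.8) in CD127-positive CD25-positive cells, which is 4.70-fold (3.90 to 5.71) and 4.28-fold (3.64 to 5.04) higher. CD127-positive CD25-negative cells had 1.06 and 2.83 CPM. The PRSS57 RNA came from few cells: 195 and 209 CD25high CD127low cells had a PRSS57 UMI on day 3 and day 20, against 41 and 93 CD127-positive CD25-positive cells, and no cell held more than 24. Without the 701 doublet-like cells its day 3 ratio was log2 1.34 at a level under 50 CPM, which ended that call.

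CD9 (ENSMMUG00000004470), a tetraspanin of the cell surface, had 87.2 CPM (81.7 to 93.0) and 94.1 CPM (86.8 to 102) in CD25high CD127low cells, against 31.3 CPM (27.7 to 35.2) and 35.3 CPM (31.8 to 39.1) in CD127-positive CD25-positive cells. CD127-positive CD25-negative cells had 10.7 and 11.9 CPM, so that CD9 was graded over the sorts. PTTG1 (ENSMMUG00000023077), which encodes securin, the inhibitor that keeps sister chromatids joined until anaphase, had 117 CPM (111 to 124) and 171 CPM (161 to 181) in CD25high CD127low cells, against 39.6 CPM (35.6 to 43.9) and 59.7 CPM (55.1 to 64.5) in CD127-positive CD25-positive cells. The fold was 2.96 (2.63 to 3.34) and 2.86 (2.59 to 3.16). Of the 20 genes of the proliferation list, 4 reached the 50 CPM of a call on each day and none of those was called. MKI67, a marker of dividing cells, was under that level, with 8.16 CPM (6.54 to 10.05) and 9.57 CPM (7.36 to 12.3) in CD25high CD127low cells, against 2.12 CPM (1.28 to 3.32) and 5.63 CPM (4.28 to 7.26).

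All 6 genes were ordered the same way on both days, highest in the Treg gate, lower in CD127-positive CD25-positive cells and lowest in CD25-negative cells. Of all named genes called higher, without ribosomal protein genes, 10 of 13 on day 3 and 8 of 8 on day 20 had that order. The call itself fixes the step from the Treg gate to CD127-positive CD25-positive cells, so only the step to CD25-negative cells was free. How many of all genes show that free step was not counted. The plot of levels by sort shows how far apart the 3 levels were for each gene.

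**Figure D2:**
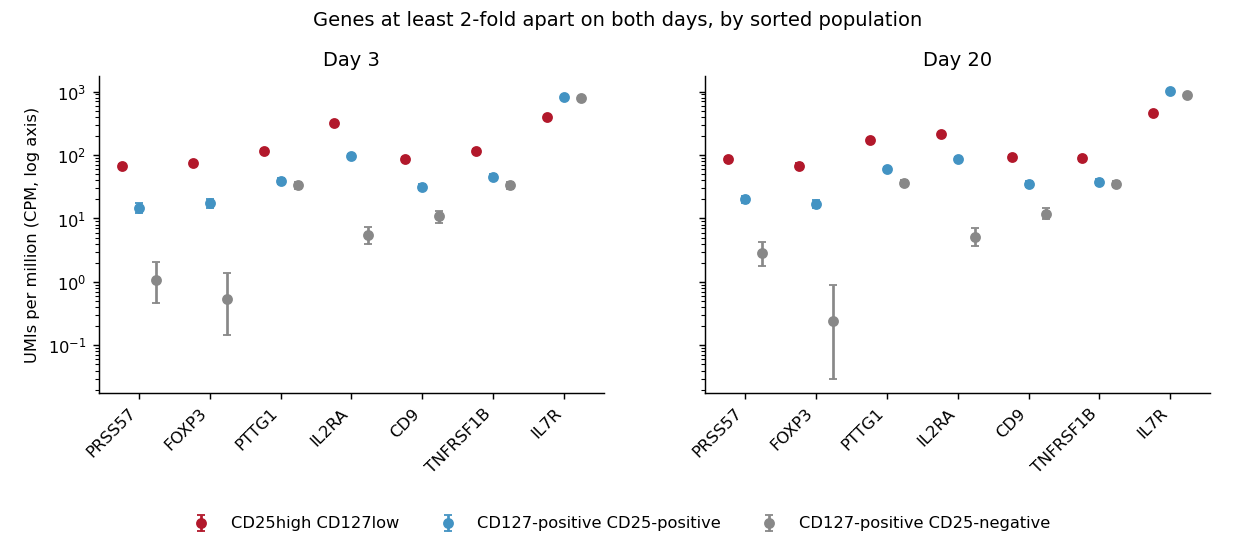
CPM on a log axis of the 7 genes called on both days, by sort (red for CD25high CD127low, blue for CD127-positive CD25-positive, grey for CD127-positive CD25-negative), with 95% Poisson intervals, on day 3 and day 20. FOXP3 stood at 0.530 and 0.246 CPM in CD25-negative cells, while IL7R was lowest in CD25high CD127low cells, at 404 and 460 CPM.

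Of the named genes called higher on 1 day only, several kept their direction on the other. CGA, the alpha subunit shared by the glycoprotein hormones, had 48.6 CPM (44.5 to 52.9) and 156 CPM (146 to 165) in CD25high CD127low cells, against 9.39 CPM (7.49 to 11.6) and 29.8 CPM (26.6 to 33.3) in CD127-positive CD25-positive cells, a fold of 5.17 (4.10 to 6.59) and 5.22 (4.59 to 5.94), and it missed the day 3 call only by its level. IL1RL1, the interleukin-33 receptor ST2, had 35.2 and 63.5 CPM, against 8.61 and 14.4 CPM, and missed the day 3 call in the same way. Both were close to 0 in CD127-positive CD25-negative cells, at 0.133 and 0.614 CPM for CGA and 2.25 and 1.84 CPM for IL1RL1. RGS1, a regulator of G protein signalling that damps chemokine responses, had 142 and 88.6 CPM in CD25high CD127low cells, against 41.6 and 42.8 CPM, and was 3.41-fold (3.04 to 3.83) and 2.07-fold (1.83 to 2.35) higher, of which the day 20 value fell short of the call with 10 CPM added (log2 0.90). PTMS (parathymosin) behaved alike, with 61.7 and 64.4 CPM, against 23.0 and 31.7 CPM. AIRE, known for driving self-antigen expression in the thymus, had 65.4 and 26.9 CPM in CD25high CD127low cells, against 26.8 and 17.5 CPM, and was called on day 3 alone. LPAR6, a lysophosphatidic acid receptor, had 119.9 CPM (113 to 127) and 54.4 CPM (48.9 to 60.3), against 54.0 CPM (49.3 to 59.0) and 53.1 CPM (48.8 to 57.7), so that on day 20 the levels overlapped within counting error.

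The remaining 3 day 3 calls were genes of other blood cells. HBB, a beta-globin, had 1385 CPM in CD25high CD127low cells, against 147 CPM in CD127-positive CD25-positive cells, on day 3, whereas on day 20 it had 0.304 against 0.286 CPM. The 10 highest cells held 97.3% of the HBB UMIs of the CD25high CD127low library of day 3, and a single cell held 5512. HBQ1, a theta-globin, was at 349 against 21.1 CPM on day 3, with 98.1% of the CD25high CD127low UMIs in the 10 highest cells. IGKC, the immunoglobulin kappa constant region of B cells, had 55.2 and 46.5 CPM, against 11.96 and 16.2 CPM, spread over 210 and 146 CD25high CD127low cells and 59 and 89 CD127-positive CD25-positive cells with an IGKC UMI.

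The authors deposited a class for each cell, made by them from these cells: endoTreg (clusters 3 and 4), Tconv (clusters 5 to 10) and transTreg (clusters 1 and 2). Since clusters rest on the same RNA counts, the genes behind them are no independent finding, but the classes show where in each sort the RNA was. Of CD25high CD127low cells, 38.9% (37.2 to 40.5%) on day 3 and 40.0% (38.0 to 42.1%) on day 20 were in the endoTreg class, against 9.22% (8.20 to 10.3%) and 6.17% (5.50 to 6.89%) of CD127-positive CD25-positive cells, and 2.40% and 1.36% of CD127-positive CD25-negative cells. Conversely, 60.9% and 57.9% of cells in the Treg gate were in the Tconv class, against 90.6% and 93.7%. The make-up of the endoTreg class also differed on day 20: cluster 3 held 535 of its 938 CD25high CD127low cells, against 238 of its 293 CD127-positive CD25-positive cells, whereas on day 3 it held 570 of 1301, against 140 of 272. The plot of shares shows cluster 4 as the smaller part in CD127-positive CD25-positive cells on day 20.

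**Figure D3:**
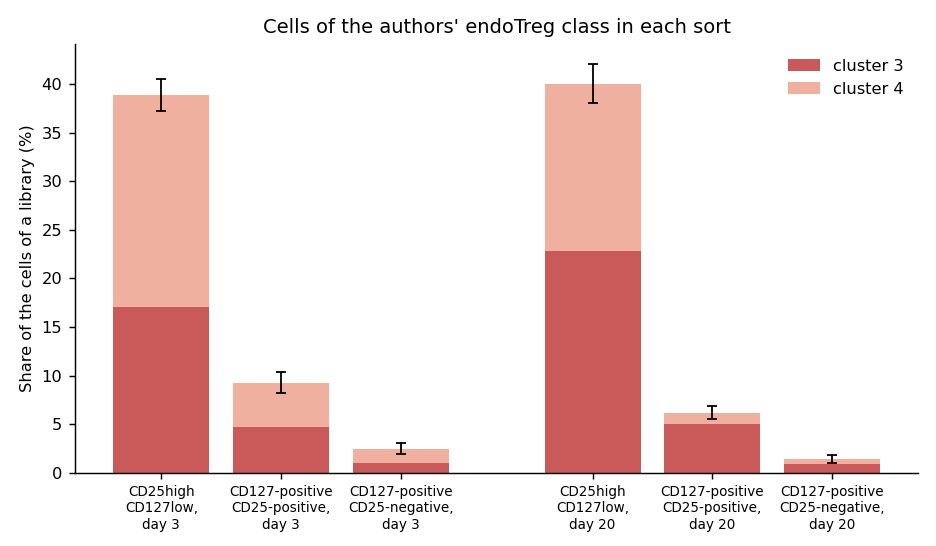
Share of the cells of each library that fell in the authors' endoTreg class, as its clusters 3 and 4 stacked, for each sort on day 3 and day 20, with exact binomial 95% intervals of the class. The share was 38.9% and 40.0% in CD25high CD127low cells, against 9.22% and 6.17% in CD127-positive CD25-positive cells.

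Where the UMIs of the called genes lay differed from gene to gene. PRSS57 UMIs came almost wholly from the endoTreg class in both sorts, with 97.0% and 97.3% in CD25high CD127low cells and 96.2% and 92.8% in CD127-positive CD25-positive cells, nearly all of it cluster 3. CGA lay there likewise, at 96.0% and 98.1%, against 97.6% and 96.5%. FOXP3 UMIs lay there to 86.2% and 83.6%, against 87.1% and 65.5%. IL2RA was spread more widely: its share in the endoTreg class was 77.0% and 64.6% in CD25high CD127low cells, against 44.4% and 24.0% in CD127-positive CD25-positive cells, where the Tconv class held the larger part.

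Within the endoTreg class the 7 genes differed by less than 2-fold on each day, and none was called. Within either class none of them was called on both days. Inside the endoTreg class FOXP3 had 160 CPM (149 to 172) and 140 CPM (126 to 155) in CD25high CD127low cells, against 151 CPM (126 to 178) and 170 CPM (140 to 204) in CD127-positive CD25-positive cells, and the intervals overlapped on each day. PRSS57 had 162 CPM (150 to 174) and 205 CPM (188 to 223), against 140 CPM (116 to 166) and 284 CPM (245 to 327). The day 20 level over the class as a whole was thus lower in the Treg gate, but the make-up of the class differed. Cluster 3 held 97.1% of the PRSS57 UMIs of CD25high CD127low cells on day 20, against 92.8%. It made up 535 of 938 cells of the class, against 238 of 293. Levels of PRSS57, PTTG1 and FOXP3 within cluster 3 alone were not examined. PTTG1 had 371 CPM (348 to 395) on day 20, against 471 CPM (421 to 526). IL2RA had 597 CPM (574 to 620) on day 3, against 430 CPM (388 to 475), and 338 CPM (316 to 361) on day 20, against 319 CPM (278 to 364). IL7R remained lower in CD25high CD127low cells of the class, at 145 CPM (134 to 157) and 216 CPM (198 to 234), against 251 CPM (219 to 286) and 322 CPM (281 to 367), though by less than 2-fold.

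Within the Tconv class FOXP3, IL2RA, PRSS57, TNFRSF1B, CD9 and CTLA4 had higher levels in the Treg gate too. TNFRSF1B was 1.59-fold (1.34 to 1.88) and 1.53-fold (1.26 to 1.84) higher on day 3 and day 20. CD9 was 1.53-fold (1.23 to 1.91) and 1.37-fold (1.11 to 1.70) higher, and CTLA4 2.27-fold (1.74 to 2.96) and 1.95-fold (1.42 to 2.67). FOXP3 had 17.5 CPM (14.4 to 21.1) and 16.9 CPM (13.0 to 21.6) in CD25high CD127low cells of this class, against 2.49 CPM (1.52 to 3.84) and 6.13 CPM (4.68 to 7.89) in CD127-positive CD25-positive cells, and 0.410 and 0.251 CPM in CD127-positive CD25-negative cells. IL2RA had 122 CPM (114 to 131) and 121 CPM (110 to 132), against 60.1 CPM (54.8 to 65.7) and 69.6 CPM (64.4 to 75.0), and 5.19 and 5.26 CPM in CD25-negative cells. IL7R had 585 CPM (566 to 604) and 638 CPM (612 to 664), against 887 CPM (867 to 908) and 1057 CPM (1037 to 1078). Without a pseudocount FOXP3 was 7.03-fold (4.34 to 11.95) and 2.76-fold (1.91 to 3.99) higher here, the first above its 4.39-fold over all cells, at levels under the 50 CPM of a call. PRSS57 was higher as well at levels near 0, with 3.15 CPM (1.92 to 4.86) and 3.70 CPM (2.02 to 6.21), against 0.622 CPM (0.202 to 1.45) and 1.33 CPM (0.707 to 2.27). PTTG1 had 30.7 against 31.0 CPM on day 20, a fold of 0.990 (0.793 to 1.23). Over all genes, 3 of 1673 (0.179%) were called higher and 9 (0.538%) lower in the Tconv class on day 3, and 62 of 1841 (3.37%) higher and 0 lower on day 20. The named ones were HBB, HBQ1 and GNLY on day 3 and GZMB on day 20, and GZMB and GNLY are granule proteins of cytotoxic cells. GZMB reached 59.2 CPM, against 15.7 CPM, in this class on day 20, while over all cells it had 682 and 742 CPM in CD127-positive CD25-negative cells.

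**Figure D4:**
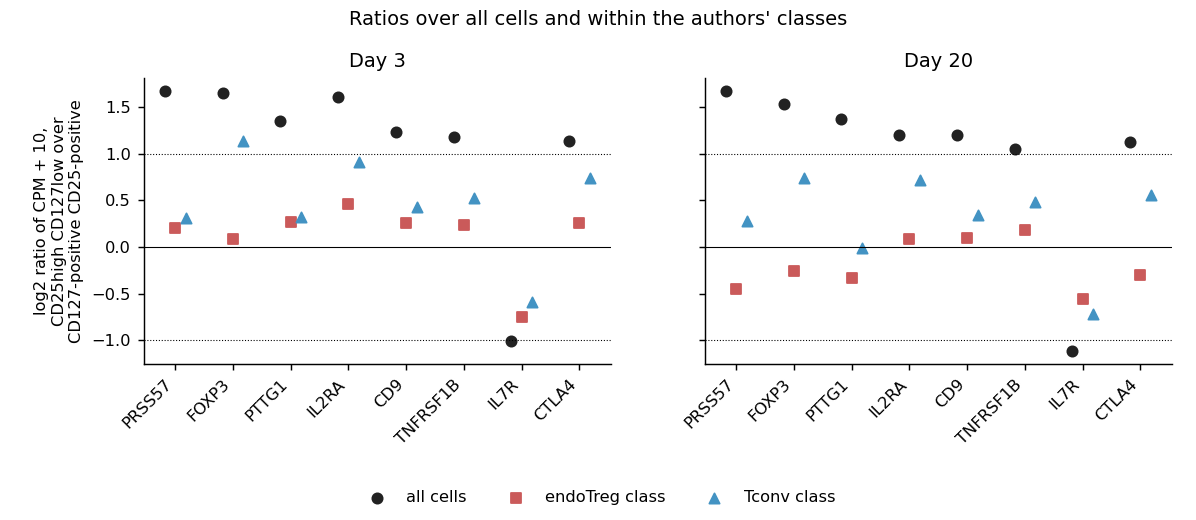
Log2 ratio of CPM + 10, CD25high CD127low over CD127-positive CD25-positive, for the 7 genes called on both days and CTLA4, over all cells (black circles), within the endoTreg class (red squares) and within the Tconv class (blue triangles). Dotted lines mark 2-fold. Over all cells IL2RA stands at 1.61 on day 3, and it lies at 0.46 within the endoTreg class and 0.92 within the Tconv class. PRSS57 lies at 0.31 and 0.27 within the Tconv class although its levels there differ by 5.07-fold and 2.79-fold, since the 10 CPM added exceed both levels.

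The share of cells with a UMI gave the same order at equal depth. After each cell was thinned to 1000 UMIs, which left out 6 shallower cells of the CD127-positive CD25-positive library and 6 of the CD127-positive CD25-negative library of day 20 and no others, FOXP3 was found in 6.51% (5.70 to 7.40%) and 6.23% (5.29 to 7.29%) of CD25high CD127low cells, against 1.49% (1.09 to 1.996%) and 1.79% (1.43 to 2.21%) of CD127-positive CD25-positive cells. The background, in CD127-positive CD25-negative cells, was 0.0659% on day 3 and 0 of 3671 cells on day 20, which allows a share of up to 0.0817%. Unthinned, the shares were 16.1% and 13.4%, against 3.25% and 2.82%, with 0.132% and 0.0544% in CD25-negative cells. IL2RA was found in 22.7% and 17.7% of thinned CD25high CD127low cells, against 7.73% and 7.95%, and IL7R in 28.5% and 31.9%, against 51.2% and 59.4%. Within the endoTreg class the thinned FOXP3 shares overlapped, at 13.8% (12.004 to 15.8%) and 13.0% (10.9 to 15.3%) in CD25high CD127low cells and 10.3% (6.95 to 14.5%) and 17.4% (13.2 to 22.2%) in CD127-positive CD25-positive cells. At this depth a cell without a FOXP3 UMI is not shown to lack FOXP3.

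Of the Treg core list, 17 of 20 genes were in the table and 5 reached 50 CPM on day 3 and 6 on day 20. Of those, 3 (FOXP3, IL2RA and TNFRSF1B) were called higher and 0 lower on each day, beside 0.743% and 2.7% of all genes called higher. Over named genes without ribosomal protein and mitochondrial genes those shares were 0.898% and 0.517%. FOXP3 and TNFRSF1B reached 50 CPM in CD25high CD127low cells alone and so could not be called lower, and IL2RA encodes the gated CD25. A level of 20 CPM in either library was reached by 8 members on day 3 and 10 on day 20, of which 2 (FOXP3 and CTLA4) and 4 (with IL10RA and CD27) reached it in CD25high CD127low cells alone and so had to be higher there. Of the 6 members that reached it in both libraries of a day, the gated IL2RA among them, 5 had a higher level in the Treg gate on day 3 and 6 on day 20. Of all genes at 20 CPM in either library, 67.9% and 44.6% did. Within the endoTreg class the list had a median of 0.10 and 0.08. There 4 of 10 and 5 of 11 measured members lay below 0, beside 48.0% and 68.9% of all genes. TNFRSF18, the receptor GITR, had 81.7 CPM (76.4 to 87.2) and 90.7 CPM (83.6 to 98.3) in CD25high CD127low cells, against 46.4 CPM (42.0 to 51.1) and 56.7 CPM (52.3 to 61.5), which is 1.76-fold and 1.60-fold. ICOS, a co-stimulatory receptor of effector Tregs and helper cells, had 46.1 and 57.6 CPM, against 48.2 and 56.1 CPM, and so barely separated the gates. IKZF2, which encodes Helios, was captured at only 5.10 and 3.80 CPM, against 0.782 and 0.953 CPM.

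Genes of the naive and memory states were split. The transcription factors TCF7 and LEF1, which maintain the naive state, stood at log2 ratios of -0.50 and -0.29 on day 3, and of -0.67 and -0.47 on day 20, while ID3, an inhibitor of E proteins, had 0.60 and 0.84. None of the 12 naive and quiescence factors was called, and of the 10 and 8 that reached 20 CPM, 5 on day 3 (ID3 among them) and 1 on day 20 did so in CD25high CD127low cells alone. Of the memory list of S100 proteins, annexins and galectins, 17 of 18 genes were in the table and 0 were called, with a median of 0.20 and 0.09. S100A4, a calcium-binding protein of memory T cells, had 2044 and 2259 CPM in CD25high CD127low cells, against 1377 and 1657 CPM, while ANXA1, an anti-inflammatory annexin, had 479 and 567 CPM, against 649 and 857 CPM. Single genes of these lists thus differed in both directions.

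CD127-positive CD25-positive cells had more RNA of 2 helper ligands, neither of them called. CD40LG, with which helper cells activate B cells, had 35.4 and 50.5 CPM in CD25high CD127low cells, against 56.3 and 79.0 CPM in CD127-positive CD25-positive cells. TNFSF8, the CD30 ligand, had 50.4 and 41.9 CPM, against 63.2 and 76.4 CPM. IL2 and IL10 RNA stayed at or under 0.286 CPM in all 4 libraries. The list of helper cytokines and ligands had 14 of 18 genes in the table and 4 at 20 CPM or more, with a median of -0.20 and -0.45 and 0 calls. CCR9, the gut homing receptor, had 23.7 and 8.36 CPM, against 27.2 and 27.1 CPM, and on day 20 its fold was 0.309 (0.227 to 0.413) at a level under that of a call.

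No interferon response gene was called, and 12 of 13 measured members lay above 0 on day 3 and 13 of 14 on day 20, 1 of which (XAF1) reached 20 CPM in CD25high CD127low cells alone, beside 67.9% and 44.6% of all genes at that level, with a median of 0.30 and 0.18. ISG20, an antiviral exonuclease, had 671 and 569 CPM in CD25high CD127low cells, against 413 and 456 CPM, and BST2 (tetherin) had 214 and 253 CPM, against 156 and 183 CPM. Within the endoTreg class 5 of 12 and 10 of 13 measured interferon genes lay below 0, beside 48.0% and 68.9% of all genes. Within the Tconv class 1 of 14 and 1 of 16 did, beside 38.3% and 62.8%. Of those 14 and 16, 1 and 3 reached 20 CPM in CD25high CD127low cells alone. The glycolysis list had a median of 0.22 and 0.13 and the T cell receptor signalling list 0.09 and 0.03, with 0 calls in either. Actin cytoskeleton genes had a median of 0.22 on day 3, with 15 of 17 above 0, and -0.06 on day 20, with 6 of 17 above 0. The proliferation list had a median of 0.26 and -0.03 over the 5 members at 20 CPM.

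The remaining lists held few calls, and their medians include up to 3 members of a list that reached 20 CPM in 1 of both libraries alone. Of the TNF receptor superfamily, TNFRSF1B was called on each day, with a median of 0.31 and 0.21 over the 6 and 7 members measured. Of the T helper factors and receptors, IL1RL1 was called on day 20, and the median of the 5 measured was 0.02 and -0.19. Of the activation and immediate early genes, RGS1 was called on day 3, and the median was -0.07 and -0.09. No call was made among effector Treg factors (median 0.25 and -0.11), homing receptors (-0.14 and -0.01), integrins (0.05 and 0.07), p53 targets (0.34 and 0.21) or class II histocompatibility genes, of which 9 of 19 were in the table and 1 was measured. Of the cytotoxic granule genes 2 and 4 reached 20 CPM, 1 and 3 of them in CD25high CD127low cells alone, and 0 were called. Their median was 0.86 and 0.93. GZMB had 23.9 and 45.9 CPM in CD25high CD127low cells, against 7.82 and 16.5 CPM in CD127-positive CD25-positive cells.

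**Figure D5:**
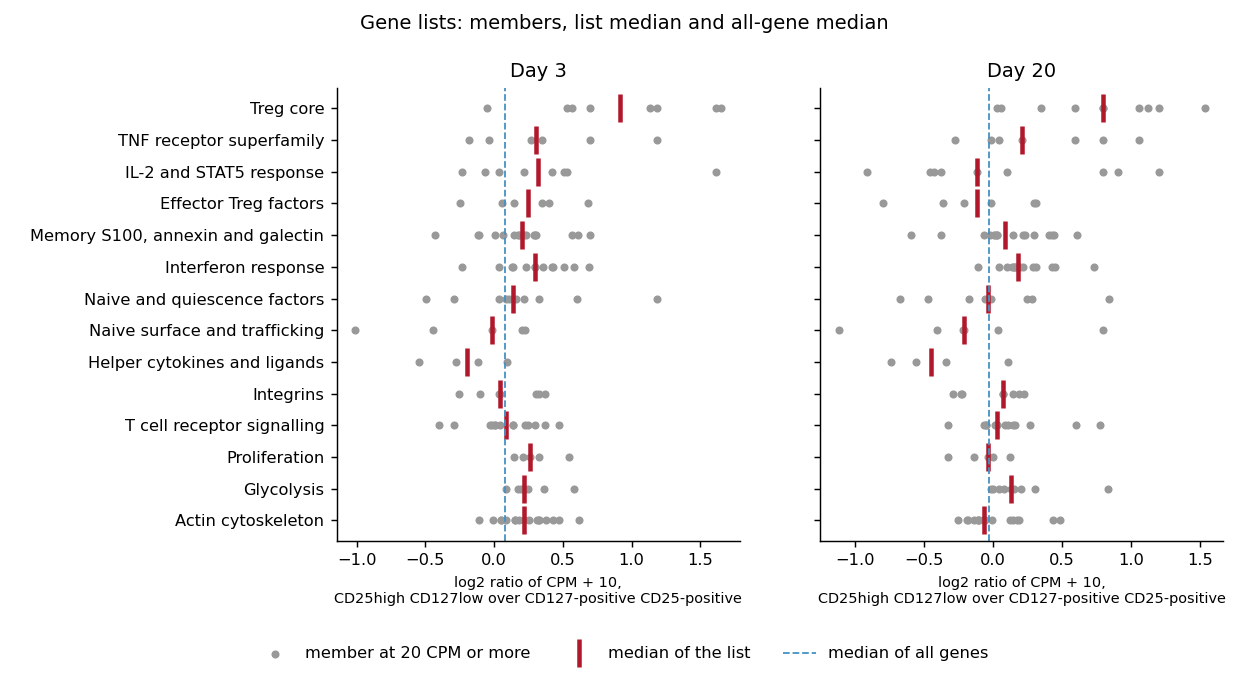
Log2 ratio of CPM + 10, CD25high CD127low over CD127-positive CD25-positive, of the members of gene lists with at least 20 CPM in 1 compared library (grey points), with the median of each list (red bar) and of all genes at that level (dashed line), on day 3 and day 20. Among the lists drawn, the Treg core list has the highest median on each day, 0.92 and 0.80, which includes the members admitted by their CD25high CD127low level alone. Some lists not drawn had higher medians over few members. B cell markers had 1.03 and 0.94 over 4 and 2 members, all admitted by their CD25high CD127low level alone. Cytotoxic granule genes had 0.93 on day 20 over 4 members, 3 of them admitted in that way.

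Among IL-2 response genes, the ratio of CISH changed sign between the days. CISH, a feedback inhibitor that STAT5 induces downstream of IL-2, had 208 CPM (199 to 216) on day 3 in CD25high CD127low cells, against 143 CPM (135 to 151) in CD127-positive CD25-positive cells, and 66.6 CPM (60.5 to 73.1) on day 20, against 134 CPM (127 to 141). CISH was thus 1.45-fold (1.36 to 1.56) on day 3 and 0.498-fold (0.446 to 0.554) on day 20, and over all cells the CD25high CD127low levels of the days lay far apart, while the CD127-positive CD25-positive levels lay close together. Within the endoTreg class CISH was lower on day 20 in both gates, at 301 and 37.9 CPM, against 245 and 74.6 CPM. Within the Tconv class it had 141 and 88.3 CPM, against 131 and 138 CPM. BCL2, a survival factor also induced by IL-2, had 219 and 126 CPM in CD25high CD127low cells, against 186 and 177 CPM. In the endoTreg class BCL2 had 245 and 98.7 CPM, against 232 and 89.3 CPM, and so was lower on day 20 in both gates. SOCS1, a further STAT5 feedback inhibitor, had 67.6 and 38.8 CPM, against 71.2 and 55.5 CPM. The beta and gamma chains of the IL-2 receptor did not share this: IL2RB had 46.8 and 61.4 CPM, against 29.3 and 31.2 CPM, and IL2RG 23.5 and 44.5 CPM, against 15.1 and 19.1 CPM. Over the list as a whole the median was 0.32 on day 3 and -0.12 on day 20, with IL2RA the only member called.

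Other named genes with a smaller ratio on day 20 were LPAR6, ID2, APOL2, BCL2 and STMN1, each with a lower CD25high CD127low level on that day. Within the endoTreg class LPAR6, ID2, APOL2 and BCL2 were lower on day 20 in both gates, and STMN1 in CD25high CD127low cells alone. ID2, an inhibitor of E proteins prominent in effector cells, had 143 and 58.8 CPM in CD25high CD127low cells, against 128 and 109 CPM, and 680 and 518 CPM in CD127-positive CD25-negative cells. APOL2, an apolipoprotein L family member, had 360 and 238 CPM in CD25high CD127low cells, against 232 and 253 CPM. Genes with a greater ratio on day 20 were MBD3, MT1M, DNASE1L1, NACA2, TMA7 and NDUFA1, with log2 ratios of -0.68 to -0.23 on day 3 and 0.61 to 0.998 on day 20. MBD3, a subunit of the NuRD chromatin complex, had 34.5 CPM (31.1 to 38.2) and 87.1 CPM (80.1 to 94.5), against 61.0 CPM (56.0 to 66.4) and 51.9 CPM (47.6 to 56.4). These 6 moved between the days in the direction in which the genes without a name moved (medians -0.22 and 0.86), and the part of that shift in their ratios was not tested.

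Within the endoTreg class, cell cycle genes had lower levels in the Treg gate on day 20, and the difference shrank without doublet-like cells. Of 2155 genes tested there, 13 (0.603%) were called lower in CD25high CD127low cells, 11 of them named and not ribosomal, and 140 (6.5%) higher, of which 4 were named and not ribosomal, NPM1, PFDN5 and NACA2 among them. STMN1, which destabilises microtubules, had 154 CPM (139 to 169) in CD25high CD127low cells of the class, against 432 CPM (384 to 484) in CD127-positive CD25-positive cells. PCNA, the replication clamp, had 44.3 CPM (36.6 to 53.01), against 132 CPM (106 to 162), and MKI67 17.6 CPM (13.0 to 23.4), against 52.7 CPM (36.9 to 72.9). The 20 genes of the proliferation list summed to 1095 CPM in CD25high CD127low cells of the class, against 2451 CPM, on day 20, and to 1546 CPM, against 1714 CPM, on day 3. Of the 13 members that reached 20 CPM on day 20, 7 did so in CD127-positive CD25-positive cells alone and so had to be lower, and the 6 that reached it in both libraries were all below 0, beside 68.9% of 4225 genes. Over named genes without ribosomal protein genes, 75.2% of 3744 lay below 0. Other lists leaned the same way in the class on day 20: 16 of 16 memory S100, annexin and galectin genes, 16 of 17 actin genes and the 4 B cell markers at 20 CPM lay below 0, and B cell markers summed to 234 CPM, against 373 CPM, and class II genes to 120.4 CPM, against 293 CPM. Without doublet-like cells, which left 831 and 243 cells, STMN1 had 106 CPM (92.3 to 120.1), against 172 CPM (138 to 214), and was no longer called. PCNA had 35.8 CPM (28.3 to 44.7), against 53.4 CPM (34.9 to 78.2), and MKI67 8.72 CPM (5.25 to 13.6), against 20.5 CPM (9.85 to 37.8). For PCNA and MKI67 the intervals then overlapped. In those cells 7 of 2089 genes were called lower, the proliferation list summed to 949 CPM, against 1337 CPM, B cell markers to 118 CPM, against 148 CPM, and class II genes to 68.4 CPM, against 45.2 CPM. The memory and actin lists kept their direction there, with 16 of 16 and 16 of 17 genes below 0. They summed to 12603 CPM, against 17841 CPM, and to 38123 CPM, against 47623 CPM. The part of B cell and other doublet-like cells in the remaining difference was not tested.

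Those values rest on few cells and on a different make-up of the class. The 293 CD127-positive CD25-positive cells of the class on day 20 held 36 MKI67 UMIs in 20 cells, and 47 UMIs lay in 31 of the 938 CD25high CD127low cells. Within cluster 3 alone MKI67 had 30.4 CPM (22.4 to 40.5) in CD25high CD127low cells, against 63.0 CPM (44.2 to 87.3), STMN1 208 CPM (186 to 232), against 506 CPM (449 to 568), and PCNA 61.5 CPM (49.8 to 75.2), against 152 CPM (122 to 188), so that, with doublet-like cells included, the difference was there as well. Cluster 3 without doublet-like cells was not examined. The class II histocompatibility gene DRA (MAMU-DRA) was lower too, at 59.7 CPM (50.7 to 69.7), against 159 CPM (131 to 192), with its 109 UMIs in only 14 CD127-positive CD25-positive cells. Of the other calls, CFD, which encodes complement factor D, had 74.5% of its 106 CD127-positive CD25-positive UMIs in a single cell, and LYZ (lysozyme), called on day 3, had 97.4% of 76 UMIs in a single cell.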

How the data were processed

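The authors deposited UMI counts as whole numbers for each gene in each cell, and a table of each cell's library, day, cluster and class. The labels' protocols give magnetic CD4 enrichment, sorting and 10x 3' version 2 chemistry, and the submitters' processing notes name Cell Ranger 2.1.1. Which genome build and gene models they mapped to is not given in the sources used here. From the counts, sums per library were scaled to CPM (Python 3.11.15, numpy 2.4.6, scipy 1.17.1). A log2 ratio has a pseudocount of 10 CPM and understates the change of low genes; a fold has none. Intervals are exact (Poisson for levels, conditional binomial for folds, Clopper-Pearson for shares), and a count of 0 allows up to 3 counts. Every deposited cell entered, and doublets were not called but set aside in an alternative. The file lacks a symbol for 3130 identifiers, and a reference list of gene identifiers gave 309 of them a name. The ratios and calls were tested on simulated counts. The text names up to 12 genes per direction called on both days, the 6 per direction whose ratio differed most between days, and members of 31 lists (348 of 408 found) as examples; genes called on 1 day or within a class were chosen after their values were seen. The comparison, members and lists were chosen with earlier results of these data known. The alternatives were TMM (edgeR 4.0.16) and median-of-ratios (DESeq2 1.42.0) scaling, without their tests, named-gene scaling, pseudocounts of 1 and 30 CPM, minimum levels of 0 and 100 CPM, per-cell means, thinned totals, removal of doublet-like cells and single classes.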

Additional observations from a re-analysis of the deposited data

Results flagged for a closer look

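The ratio of CD25high CD127low over CD127-positive CD25-positive cells had opposite signs on day 3 and day 20 in 4 results, each with 1 library per population and day, and the difference between the days was not tested. CISH had a log2 ratio of 0.51 on day 3 and -0.91 on day 20. MBD3 had -0.68 on day 3 and 0.65 on day 20. TMA7, a translation machinery-associated protein, had -0.59 on day 3 and 0.61 on day 20, from 158 and 296 CPM in CD25high CD127low cells, against 243 and 191 CPM in CD127-positive CD25-positive cells. The median over genes without a name was -0.22 on day 3 and 0.86 on day 20. The single genes were those named in the text whose ratio was 0.5 or more in size on both days. Over all genes tested on both days 51 met that, 48 of them without a name or ribosomal, and 2 without a name were called in opposite directions, lower on day 3 and higher on day 20.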

How the results depend on the processing

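No paired analysis was possible because each population had 1 library per day. Of the 6 genes called higher on both days, FOXP3, IL2RA and PTTG1 kept that call under every scaling, pseudocount and treatment of doublet-like cells tried; a minimum of 100 CPM left IL2RA and PTTG1, and either class alone left 0. Day 20 counts of higher genes moved most: 51 became 26 with TMM, 30 with median-of-ratios scaling, 81 with named-gene scaling, 124 and 8 with pseudocounts of 1 and 30 CPM, 30 at 100 CPM, 140 within the endoTreg class and 8 over named genes. The 1 lower gene of day 20 became 2 with a pseudocount of 1 CPM or no minimum level, 0 within Tconv and 13 within endoTreg. Day 3 higher genes (13) became 8 with 30 CPM added, 7 at 100 CPM, 8 without doublet-like cells, 3 within Tconv and 0 within endoTreg, and lower genes (10) became 4 with 30 CPM added, 4 within endoTreg and 1 over named genes. Both-day higher genes became 10 with no minimum level, 2 at 100 CPM and 0 within either class, and the lower one (IL7R) became 0 with 30 CPM added, without doublet-like cells and within either class. On day 20 the log2 ratio fell below 0 for PTTG1 within Tconv (-0.011), and for PRSS57 (-0.45), FOXP3 (-0.26) and PTTG1 (-0.34) within endoTreg. The median over named genes without ribosomal protein genes was -0.08 within Tconv and -0.21 within endoTreg on that day. Folds of PTTG1 within Tconv (0.990, 0.793 to 1.23) and of FOXP3 within endoTreg (0.824, 0.668 to 1.02) had intervals that include 1. Those of PRSS57 and PTTG1 within endoTreg did not, in a class whose cluster 3 share differed between the gates on that day. The endoTreg share became 36.4% and 37.7% in CD25high CD127low cells on day 3 and day 20 and 5.27% in CD127-positive CD25-positive cells on day 20 without doublet-like cells, and 4.67% in that library among cells with at least 2000 UMIs. The share of cells with a FOXP3 UMI was 16.1% and 13.4%, against 3.25% and 2.82%, unthinned, and 11.5% and 10.1% in CD25high CD127low cells thinned to 2000 UMIs. Within Tconv, higher genes became 5 on day 3 and 125 on day 20 with 1 CPM added, and 1 on day 3 without doublet-like cells. The endoTreg-class (with and without doublet-like cells), named-gene and no-pseudocount class alternatives were chosen after seeing the data, and, beyond their smaller sets of cells or genes, the cause of these changes was not tested. Depth limits the low genes: 1 UMI was worth 0.0927 to 0.152 CPM.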

Other observations

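IL7R, which encodes the gated CD127, was followed within the endoTreg class at equal depth. In cells of that class thinned to 1000 UMIs an IL7R UMI was found in 11.7% (9.99 to 13.6%) and 18.8% (16.3 to 21.4%) of CD25high CD127low cells, against 16.2% (12.01 to 21.1%) and 28.0% (22.9 to 33.5%) of CD127-positive CD25-positive cells. The intervals overlapped on day 3 and did not on day 20.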
